A study of Mus musculus with 16 samples.

Results

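The expression of 10 genes of monoamine handling was followed across 4 groups of mouse brain: Th, Ddc, Slc6a3, Slc18a2, Dbh, Slc6a2, Tph2, Slc6a4, Maoa and Maob. Every non-control array probe whose gene name equalled one of these symbols was taken, which gave 12 probes for the 10 genes, out of 55681 distinct probes for 34821 gene names. Ddc and Slc18a2 had 2 probes each and the other genes had 1. All 12 probes passed the filter on dim probes, as did 33075 probes of the array in all. RNA came from whole brain of male C57BL/6J mice and was read on 16 Agilent arrays in 1 colour. The groups were SLC5A8-deficient mice of 4 months (young deficient), wild-type mice of 4 months (young wild type), SLC5A8-deficient mice of 18 months (old deficient) and wild-type mice of 18 months (old wild type), with 4 arrays each. The missing protein is a sodium-coupled carrier of lactate, pyruvate and ketone bodies. The labels name the deficiency without the allele or its origin. The 4 arrays of each group are given as biological replicates with nothing further on the animals, and the tests reflect how far these arrays differ.

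Dopamine, noradrenaline and serotonin are made by small groups of neurons in the midbrain, the pons and medulla and the raphe, whose axons reach most of the brain, so that a whole-brain extract holds their cell-body RNA strongly diluted. Tyrosine hydroxylase (Th) starts the synthesis of dopamine and noradrenaline, tryptophan hydroxylase 2 (Tph2) starts that of serotonin, and aromatic amino acid decarboxylase (Ddc) completes dopamine and serotonin. Dopamine beta-hydroxylase (Dbh) turns dopamine into noradrenaline. Vesicles are filled by the shared vesicular transporter Slc18a2 (VMAT2), released transmitter is taken back by the dopamine, noradrenaline and serotonin transporters Slc6a3, Slc6a2 and Slc6a4, and monoamine oxidases A and B (Maoa, Maob) break it down, also in cells that are not monoaminergic.

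Because genes of 1 transmitter system moved together across arrays (given below), the sequence before the start of 5 of them is shown, from RefSeq on GRCm38.p6. A window of 250 bases before to 50 bases after the start was on hand for 8 of the 10 genes, and none for Slc6a2 and Maob. Capitals mark the letters of 5 motifs searched on both strands: TGACGTCA (the cAMP response element), AAAGGTCA (a monomer site bound by Nr4a2), ATTA (the core that homeodomain factors bind), CCGGAA (an ETS core) and TATAAA (the TATA box). The windows lie at chr7:142899946-142900245 (minus strand) for Th, chr13:73536497-73536796 (plus) for Slc6a3, chr2:27165257-27165556 (plus) for Dbh, chr10:115184973-115185272 (minus) for Tph2 and chr11:76998347-76998646 (plus) for Slc6a4.
Th: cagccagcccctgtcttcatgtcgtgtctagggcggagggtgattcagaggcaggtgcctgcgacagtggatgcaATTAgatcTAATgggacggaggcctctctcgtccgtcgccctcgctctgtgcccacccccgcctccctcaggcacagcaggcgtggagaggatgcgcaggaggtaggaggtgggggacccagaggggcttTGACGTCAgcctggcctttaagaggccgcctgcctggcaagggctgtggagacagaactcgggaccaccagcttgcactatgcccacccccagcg
Slc6a3: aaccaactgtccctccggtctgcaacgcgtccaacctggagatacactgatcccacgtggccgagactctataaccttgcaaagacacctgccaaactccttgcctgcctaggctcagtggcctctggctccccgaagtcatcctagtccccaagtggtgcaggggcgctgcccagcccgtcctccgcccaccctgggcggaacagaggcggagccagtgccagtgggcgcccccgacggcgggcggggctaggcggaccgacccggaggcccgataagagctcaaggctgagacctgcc
Dbh: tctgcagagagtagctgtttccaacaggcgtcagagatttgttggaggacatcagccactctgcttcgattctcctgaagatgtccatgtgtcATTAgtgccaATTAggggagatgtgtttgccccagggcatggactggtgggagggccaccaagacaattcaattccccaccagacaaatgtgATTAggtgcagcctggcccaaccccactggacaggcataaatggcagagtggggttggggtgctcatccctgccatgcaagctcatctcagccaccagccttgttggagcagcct
Tph2: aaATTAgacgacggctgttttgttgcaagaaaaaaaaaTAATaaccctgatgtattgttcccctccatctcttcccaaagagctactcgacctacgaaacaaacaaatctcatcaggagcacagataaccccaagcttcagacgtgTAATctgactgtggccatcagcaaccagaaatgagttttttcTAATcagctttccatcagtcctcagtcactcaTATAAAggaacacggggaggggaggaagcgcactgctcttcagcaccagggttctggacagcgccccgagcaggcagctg
Slc6a4: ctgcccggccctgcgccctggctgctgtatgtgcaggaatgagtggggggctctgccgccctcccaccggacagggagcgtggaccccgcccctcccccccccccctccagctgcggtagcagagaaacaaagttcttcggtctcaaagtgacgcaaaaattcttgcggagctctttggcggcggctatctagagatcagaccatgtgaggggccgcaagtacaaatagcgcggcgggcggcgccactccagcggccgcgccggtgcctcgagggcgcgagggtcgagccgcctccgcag

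In the Th window the cAMP response element began at -45 relative to the start, and 1.79% of 32851 promoter windows of the same length held one. The Dbh window held ATTA at -157, -147 and -65, but 58% of all windows hold that short core. Tph2 had a TATA box at -30, a motif found in 13.6% of windows. The Slc6a3 and Slc6a4 windows held none of the 5 motifs, which says only that these letters are not in these stretches. Of the windows not shown, that of Slc18a2 had the cAMP response element at -4, and 1 of 2 Ddc windows had the Nr4a2 letters at -73, which 1.51% of windows hold.

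Levels below are log2 processed signals from which the array's value at the 75th percentile was subtracted, so 0 is the signal of that percentile and a step of 1 is 2-fold. Levels of different probes are not set against each other, since each probe binds with its own strength. The share of spots clearly over background ran from 58.4% to 66.1% per array, and the percentile itself from 624 to 1346 intensity units. The Slc5a8 probe was well above background on 0 of 16 arrays and could not check the genotype labels. All deficient arrays lay on 1 slide and all wild-type arrays on another, so genotype and slide cannot be told apart. Each group filled 1 row of its slide, young deficient and old wild type row 1, old deficient and young wild type row 2, so that the row cannot be told apart from age within a genotype or from the interaction of age and genotype. Young deficient array 1 stood apart on the first principal component (117 against -32.0 to 31.0 for the other arrays), and young wild type array 1 was the highest array for Th, Ddc, Slc6a3, Slc18a2, Dbh and Slc6a2. The 6 neuron, 6 astrocyte and 6 oligodendrocyte markers listed for brain were well above background on all 16 arrays.

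Over the 12 probes, no difference between groups passed the test. In limma's fit of the 4 groups, with p-values adjusted over all 33075 probes, 0 of 12 were called at an adjusted p under 0.05 in any of 7 comparisons. Of all probes tested, 1.43% were called between deficient and wild type at 4 months, 1.35% between deficient and wild type at 18 months, 0.375% between old and young wild type, 2.1% between old and young deficient, 0.236% in the interaction, 1.45% between the ages averaged over genotype and 3.12% between the genotypes averaged over age. At an unadjusted p under 0.05 the member counts in that order were 1, 1, 0, 1, 0, 2 and 2 of 12 probes, where 17.2%, 10%, 6.3%, 20.4%, 10.8%, 14.6% and 15.2% of all probes passed. The median difference of the 12 probes was -0.41 at 4 months and 0.02 at 18 months between the genotypes, and -0.26 in wild type and 0.07 in deficient mice between the ages, while that of all probes lay between -0.00203 and 0.0235 in these 4 comparisons. The probes nearest to a call were those of the dopamine transporter, Maob and tyrosine hydroxylase. Their lowest adjusted p was 0.128 for the transporter and 0.209 for the hydroxylase, both between genotypes averaged over age. For Maob it was 0.181, between old and young deficient.

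**Figure D1:**
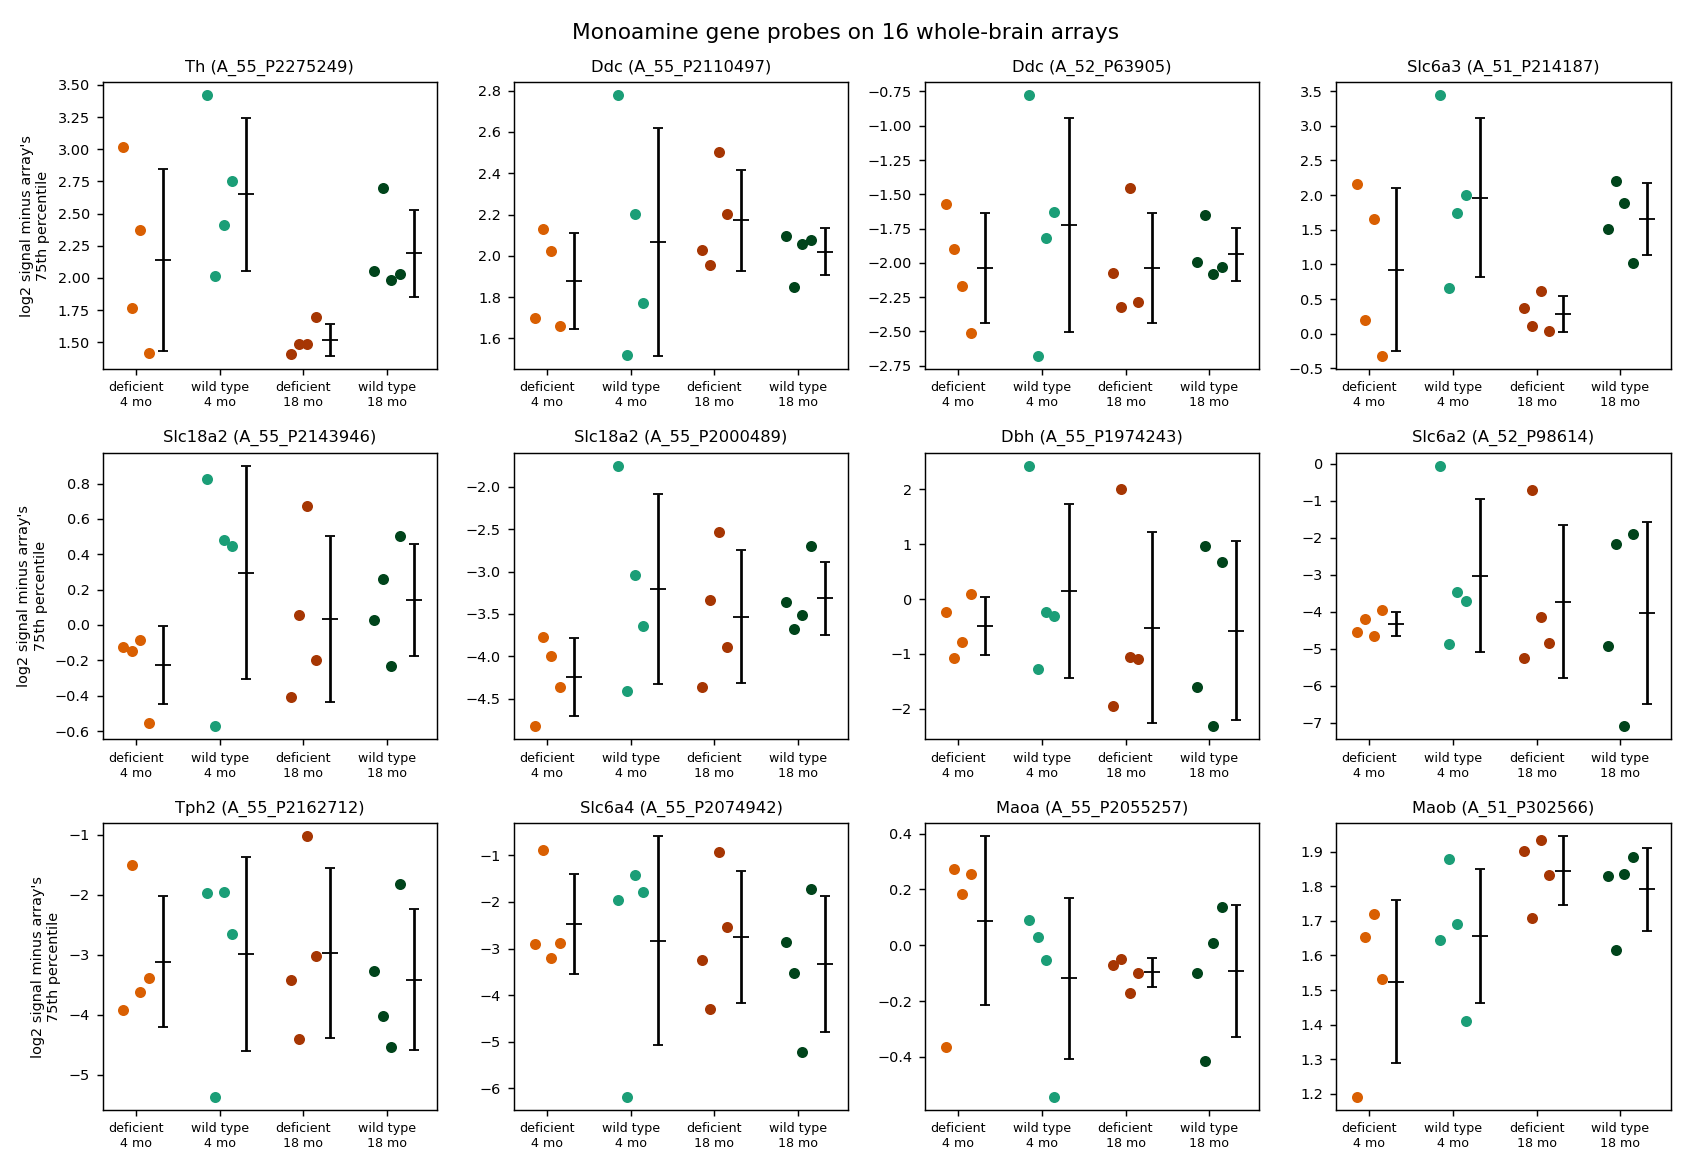
Level of each of the 12 probes on the 16 arrays (vertical axes, normalized log2 signal, scaled per panel), by group from left to right: deficient 4 months, wild type 4 months, deficient 18 months, wild type 18 months. Points are arrays and the bars beside them are the mean ± SD of 4. The 4 old deficient arrays lie below the 4 old wild type arrays for Th and Slc6a3, and Slc6a2 spans from -7.10 to -0.06.

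The dopamine transporter Slc6a3, which marks dopamine neurons of the midbrain, was lower in deficient mice of 18 months, with no overlap with wild type of that age. Its probe, A_51_P214187, lies at chr13:73715973-73716032 (NCBI37/mm9, plus strand) and starts at base 3308 of the transcript. The 4 old deficient arrays read 0.37, 0.11, 0.61 and 0.04, against 1.51, 2.21, 1.89 and 1.02 in the 4 old wild type arrays. At 4 months the deficient arrays read 2.16, 0.20, 1.66 and -0.32, against 3.44, 0.66, 1.75 and 2.01 in wild type, and the groups overlapped. The old deficient mean was 0.28 ± 0.26 and the old wild type mean 1.66 ± 0.51 (SD, n = 4 each), a difference of -1.37 ± 0.56 (SE) or 0.386 of the wild-type signal, with an adjusted p of 0.378. Averaged over both ages the difference was -1.21 ± 0.39, or 0.433 of wild type with a 95% interval of 0.243 to 0.775, and the adjusted p was 0.128. The young difference was -1.04 (95% interval -2.22 to 0.15), and the interaction, which asks whether the genotype difference changed with age, was -0.34 (95% interval -2.01 to 1.34) and was not called. In a fit of only the 8 old arrays, whose spread is then not shared with the more variable young groups, Slc6a3 passed the test (-1.37 ± 0.25, adjusted p = 0.0383), and it was called in no other setting tried.

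Tyrosine hydroxylase showed the same order of groups with a smaller difference. The Th probe (A_55_P2275249, chr7:150078703-150078762, NCBI37/mm9, minus strand) starts at base 1675 of the transcript. Old deficient arrays read 1.41, 1.49, 1.48 and 1.70, against 2.05, 2.70, 1.99 and 2.03 in old wild type, and the 2 groups did not overlap. Young deficient arrays read 3.02, 1.76, 2.37 and 1.41, against 3.42, 2.01, 2.41 and 2.75 in young wild type, where the ranges overlapped widely. The mean genotype difference was -0.59 ± 0.23 (unadjusted p = 0.02, adjusted p = 0.209), or 0.664 of wild type with a 95% interval of 0.475 to 0.928. At 18 months alone it was -0.67 ± 0.32 (adjusted p = 0.511). The old arrays were lower than the young ones by a mean of -0.54 ± 0.23 (adjusted p = 0.287), with old deficient at 1.52 ± 0.12 and young deficient at 2.14 ± 0.71, and old wild type at 2.19 ± 0.34 and young wild type at 2.65 ± 0.60. Th and Slc6a3 were the 2 of 12 probes whose old deficient and old wild type arrays did not overlap, where 8.03% of all probes did not overlap in either direction. Both were lower in deficient mice, as were 3.55% of all probes without overlap. The count was 0 of 12 between deficient and wild type at 4 months, between old and young deficient and between old and young wild type, where 9.41%, 17.4% and 3.53% of all probes did not overlap in either direction.

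In a whole-brain extract, fewer dopamine neurons and less RNA per neuron cannot be told apart, nor can either be told from a different share of midbrain in the extract. Markers of other regions moved with genotype and age in these arrays. The list of 11 markers of spinal cord and caudal hindbrain held 10 Hox genes and Slc6a5. Of the 11, 1 was above background on all 16 arrays. Averaged over age, 8 members were called higher and 0 lower in deficient brain, where 3.12% of all probes were called. Averaged over genotype, 0 were called higher and 9 lower in old brain, where 1.45% of all probes were called. The mean deviation of that list from its 16-array mean ranged from 1.07 to 2.64 in young deficient, -0.32 to 1.39 in young wild type, -0.74 to 0.78 in old deficient mice and -3.52 to -0.92 in old wild type. For 5 olfactory bulb markers, a region whose interneurons also hold Th, the ranges were -0.21 to 0.68 in young deficient, 0.63 to 1.04 in young wild type, -0.71 to -0.35 in old deficient mice and -0.82 to -0.30 in old wild type. Of those 5 markers, Tbx21 and Doc2g fell with age (-2.10 and -1.42 on the log2 scale), and no marker of the list was called between genotypes. Tbx21 was well above background on only 10 of 16 arrays, which limits the size of its fall, and Doc2g on all 16. Of 6 oligodendrocyte markers, only Mobp, a myelin protein, was called between deficient and wild-type brain at 18 months. Mobp was higher in deficient brain (a mean level of 5.39, against 4.42 in wild type of that age, a difference of 0.97, adjusted p = 0.00107). It was the only 1 of the 6 that was higher there, and the median difference of the 6 was -0.16. The part of these regions and cells in the Th and Slc6a3 values was not tested.

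Single young arrays moved these differences. Without young wild type array 1 the mean genotype difference was -0.96 for Slc6a3 and -0.46 for Th. Without young deficient array 1, the array that stood apart, it was -1.41 for Slc6a3 (adjusted p = 0.052) and -0.74 for Th (adjusted p = 0.0559). The direction was the same in each of 16 fits that left out 1 array.

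The decarboxylase Ddc and the vesicular transporter Slc18a2 serve all 3 systems, and neither was called in a comparison. The brighter Ddc probe (A_55_P2110497, chr11:11714106-11714165, NCBI37/mm9, minus strand) read 2.03, 1.96, 2.50 and 2.20 in old deficient against 2.10, 1.85, 2.06 and 2.08 in old wild type. Young deficient arrays read 1.70, 2.13, 2.02 and 1.66, against 2.78, 1.52, 2.20 and 1.77 in young wild type. Every pair of groups overlapped, and the mean genotype difference was -0.02 with a 95% interval of -0.35 to 0.31. The second Ddc probe (A_52_P63905, chr11:11776262-11776321), which starts at base 320 of its transcript where the brighter one starts at base 1956, gave -0.20 (-0.68 to 0.28). The 2 Ddc probes followed each other across arrays with r = 0.714 of deviations from group means.

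For Slc18a2, both probes were lower in deficient brain at 4 months without passing the test. The brighter probe (A_55_P2143946, chr19:59370106-59370165, NCBI37/mm9, plus strand) read -0.12, -0.15, -0.08 and -0.56 in young deficient against 0.83, -0.57, 0.48 and 0.45 in young wild type. Old deficient arrays read -0.41, 0.06, 0.67 and -0.20, against 0.03, 0.26, -0.23 and 0.50 in old wild type. The second probe (A_55_P2000489, chr19:59370153-59370212) shares 13 bases with the first. It read -4.82, -3.77, -3.99 and -4.36 in young deficient against -1.75, -4.40, -3.04 and -3.65 in young wild type, a difference of -1.03 that had an unadjusted p of 0.0499 and an adjusted p of 0.29, and that was -0.54 without young wild type array 1. Averaged over age, the genotype difference was -0.32 (95% interval -0.74 to 0.11) by the brighter probe and -0.62 (-1.35 to 0.10) by the second, which correlated at r = 0.824.

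Outside the young deficient group, noradrenergic genes differed far more between arrays of 1 group than between groups. In young deficient brain they spanned 1.18 (Dbh) and 0.71 (Slc6a2) log2 units. Dbh (A_55_P1974243, chr2:27038665-27038724, NCBI37/mm9, plus strand) read -0.24, -1.08, -0.78 and 0.10 in young deficient against 2.43, -1.29, -0.23 and -0.32 in young wild type. At 18 months the deficient arrays read -1.95, 2.01, -1.06 and -1.09, against -1.61, 0.96, -2.32 and 0.67 in old wild type. Young wild type array 1 and old deficient array 2 thus each lay over 3 log2 units above the lowest array of their own group. The noradrenaline transporter Slc6a2 (A_52_P98614, chr8:95525166-95525225, plus strand) peaked on the same 2 arrays. It read -4.56, -4.18, -4.67 and -3.95 in young deficient against -0.06, -4.87, -3.47 and -3.71 in young wild type. In old deficient brain it read -5.24, -0.71, -4.14 and -4.85, against -4.92, -2.17, -7.10 and -1.91 in old wild type, where the value of -7.10 was not well above background. The mean genotype difference was -0.30 (95% interval -1.70 to 1.10) for Dbh and -0.51 (-2.35 to 1.32) for Slc6a2, so that these arrays left differences of either sign and of more than 2-fold inside the interval.

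Serotonergic genes were as variable. Tph2 (A_55_P2162712, chr10:114516684-114516743, NCBI37/mm9, minus strand) read -3.92, -1.51, -3.62 and -3.39 in young deficient against -1.97, -5.36, -1.95 and -2.65 in young wild type. In old deficient brain it read -3.42, -4.39, -1.02 and -3.02, against -3.27, -4.02, -4.53 and -1.82 in old wild type. The serotonin transporter Slc6a4 (A_55_P2074942, chr11:76845777-76845836, plus strand) read -2.90, -0.89, -3.20 and -2.89 in young deficient against -1.95, -6.18, -1.42 and -1.78 in young wild type, where -6.18 was not well above background. In old deficient brain the transporter read -3.24, -4.30, -0.93 and -2.53, against -2.86, -3.53, -5.22 and -1.73 in old wild type. Within each of the 4 groups the array with the most Tph2 was also the array with the most Slc6a4. The groups overlapped in every comparison, and the mean genotype difference was 0.16 (95% interval -1.13 to 1.44) for Tph2 and 0.47 (-1.06 to 2.01) for Slc6a4.

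The monoamine oxidases, which many cell types make, were the steadiest of the members. Maoa (A_55_P2055257, chrX:16264785-16264844, NCBI37/mm9, plus strand) averaged 0.09 ± 0.30 in deficient and -0.12 ± 0.29 in wild type at 4 months (SD, n = 4 each). Old deficient averaged -0.10 ± 0.05 and old wild type -0.09 ± 0.24. The mean genotype difference of Maoa was 0.10 (95% interval -0.15 to 0.35). Maob (A_51_P302566, chrX:16286427-16286486, minus strand), the form found in astrocytes and serotonin neurons, read 1.90, 1.71, 1.94 and 1.83 in old deficient against 1.19, 1.65, 1.72 and 1.53 in young deficient, with the lowest old array just under the highest young one. Old wild type arrays read 1.83, 1.62, 1.84 and 1.89, against 1.65, 1.88, 1.69 and 1.41 in young wild type. The age difference of Maob averaged over genotype was 0.23 ± 0.09, or 1.17-fold, with an unadjusted p of 0.023 and an adjusted p of 0.254, and its genotype difference was -0.04 (-0.23 to 0.15). Among 6 astrocyte markers, the water channel Aqp4 was lower in old than in young deficient brain (-0.67 ± 0.14, adjusted p = 0.0246), where the difference of Maob was 0.32, and its part in that value was not tested.

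**Figure D2:**
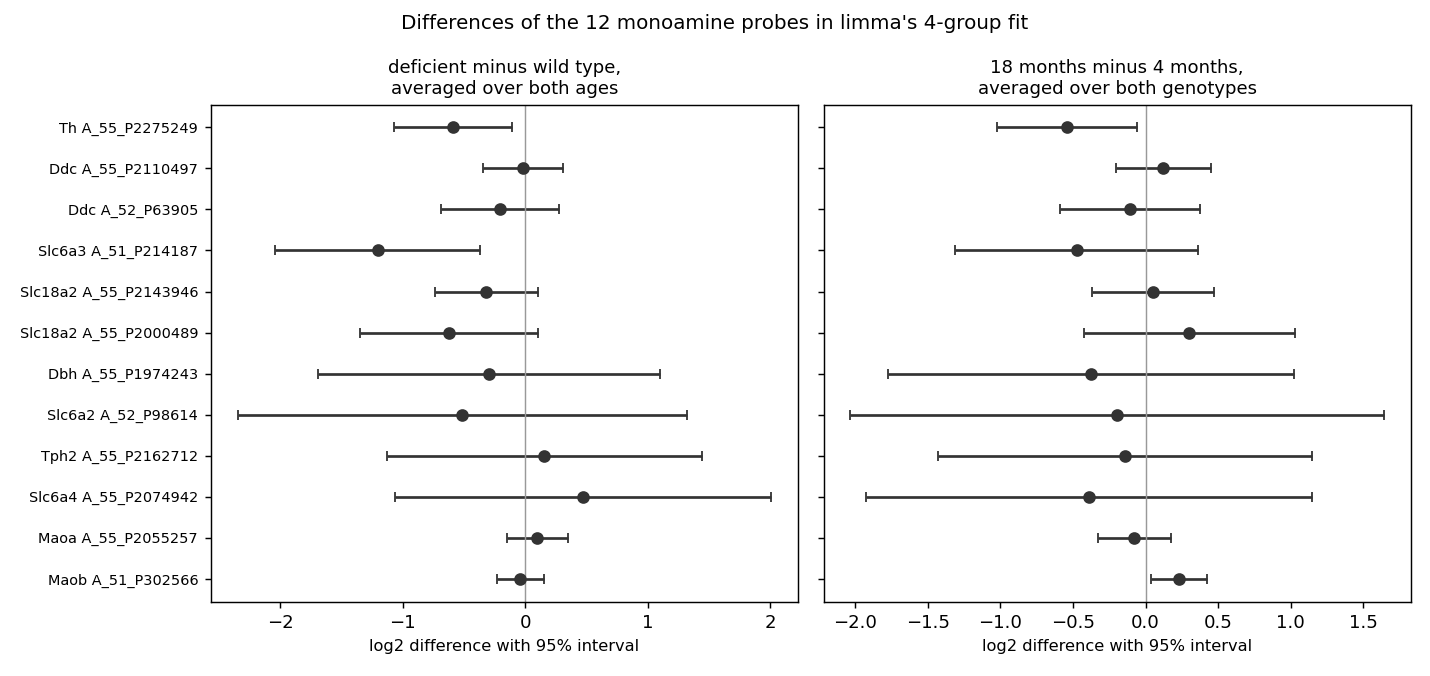
Log2 difference (horizontal axes) of the 12 probes (rows) between deficient and wild type averaged over both ages (left) and between 18 and 4 months averaged over both genotypes (right). Points are limma's estimates and bars their 95% intervals before adjustment for the number of probes. The intervals of Th and Slc6a3 on the left, and of Th and Maob on the right, do not reach 0, and those of Slc6a2 are the widest.

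The members differed widely in how far single arrays lay apart, with the noradrenaline and serotonin genes at one end and the oxidases at the other. Over the arrays where the spot was well above background, Slc6a2 spanned a 36.4-fold range of signal (15 arrays), Dbh 27.0-fold (16), Tph2 20.2-fold (16), Slc6a4 20.1-fold (15) and Slc6a3 13.5-fold (16). The remaining 7 probes were above background on all 16 arrays. Th spanned 4.03-fold, the 2 Slc18a2 probes 2.64-fold (brighter) and 8.39-fold, and the 2 Ddc probes 2.39-fold (brighter) and 3.73-fold, while Maoa spanned 1.76-fold and Maob 1.68-fold. Within groups, the pooled SD of log2 levels was 1.46 for Dbh and 1.34 for Tph2, 0.50 for Th, and 0.43 and 0.75 for the 2 Slc18a2 probes, against a median of 0.23 over the 29469 probes well above background on all arrays. The SD of Tph2 exceeded that of 99.98% of those probes and that of Dbh 99.99%, whereas for Maob the share was 27.8%.

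Within groups, the hydroxylase and the transporter of each transmitter rose and fell together from array to array. The source of this spread between arrays was not tested. Deviations of each array from its group mean were correlated over the 16 arrays for all 45 pairs of the 10 genes, using the brighter probe, with p-values from 100000 permutations of arrays within groups. Dbh and Slc6a2 had Pearson's r = 0.968 (permutation p = 0.00019, adjusted over the 45 pairs 0.00427) and Spearman's rho = 0.921 (adjusted p = 0.00832). Tph2 and Slc6a4 had r = 0.962 (permutation p = 6e-05, adjusted p = 0.0027) and rho = 0.959 (adjusted p = 0.00315). Th and Slc6a3 had r = 0.919 (permutation p = 0.00129, adjusted p = 0.0193), and their rho of 0.815 had an adjusted p of 0.106. No other pair of the 45 had an adjusted p under 0.05.

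Each of the 3 correlations held when samples were taken away. Without the 2 arrays farthest from the median r was 0.940 for Dbh with Slc6a2, 0.947 for Tph2 with Slc6a4 and 0.852 for Th with Slc6a3. Over fits without 1 array at a time the lowest values were 0.956, 0.950 and 0.887 in that order. Within the slide of deficient arrays (n = 8) they were 0.949, 0.983 and 0.918, and within the slide of wild-type arrays (n = 8) 0.984, 0.965 and 0.922. Under normexp background correction, quantile normalization and in the deposited table the lowest of the 9 values was 0.923.

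**Figure D3:**
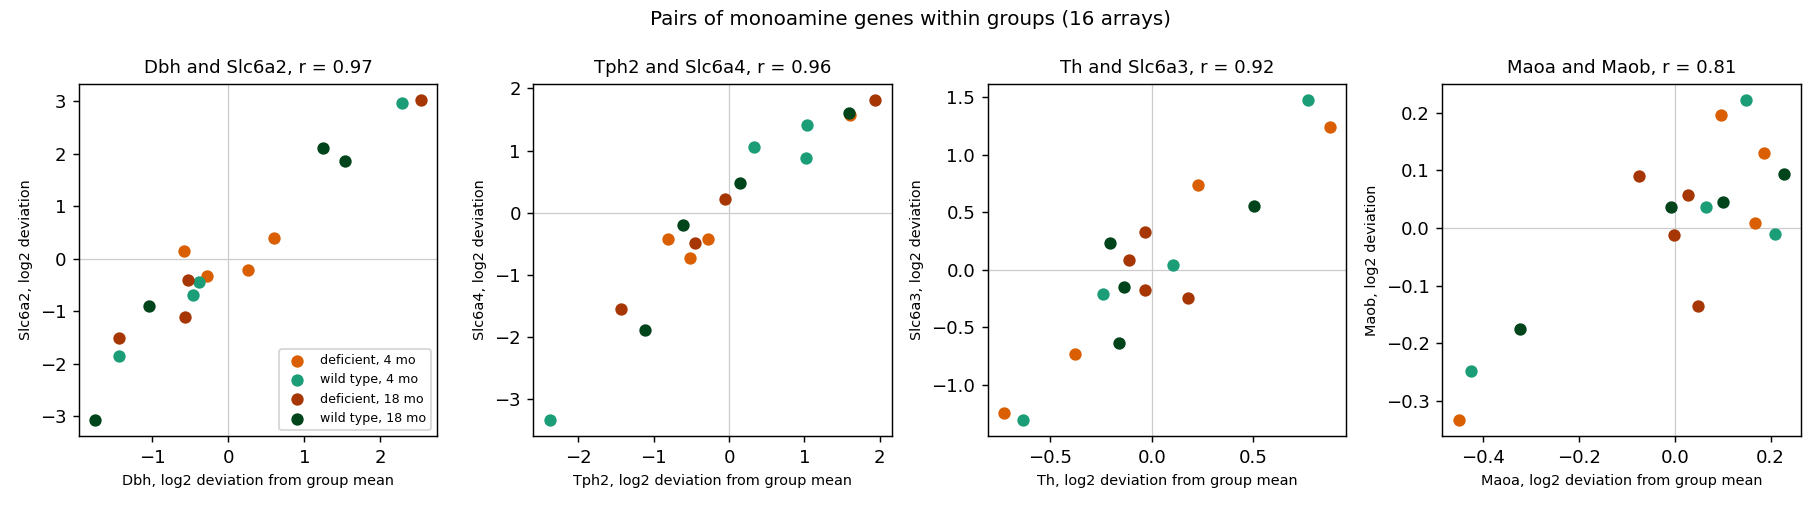
Deviation of each array from its group mean for 4 pairs of genes (both axes in log2 units). Each point is 1 array and colours are the 4 groups. Dbh with Slc6a2, Tph2 with Slc6a4 and Th with Slc6a3 lie along a line (r = 0.97, 0.96 and 0.92), with points of all groups at both ends for the serotonin pair, and Maoa with Maob has r = 0.81.

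Over all 16 arrays, genes of different transmitters did not move together in this way. Dbh and Th had r = 0.431, Dbh and Tph2 0.123, Th and Tph2 0.065, and the dopamine and serotonin transporters Slc6a3 and Slc6a4 0.169, although noradrenaline neurons also need Th. These values differed by slide. On the slide of wild-type arrays (n = 8) r was 0.808 for Th with Dbh and 0.585 for Dbh with Tph2. There it was 0.420 for Th with Tph2 and 0.374 for Slc6a3 with Slc6a4. On the slide of deficient arrays (n = 8) the values in that order were -0.014, -0.528, -0.315 and -0.146. Over all 16 arrays, the shared genes stood between the systems. Slc18a2 had r = 0.761 with Tph2, 0.779 with Slc6a4, 0.527 with Th and 0.526 with Dbh, and Ddc had 0.715 with Tph2 and 0.346 with Th, each with an adjusted permutation p above 0.05. The values of Slc18a2 with Tph2 and Slc6a4 were 0.545 and 0.568 without the 2 farthest arrays. Maoa and Maob had r = 0.814 (adjusted permutation p = 0.0778), which was 0.556 without young deficient array 1 and young wild type array 4. The lowest r of that pair without 1 array was 0.688.

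**Figure D4:**
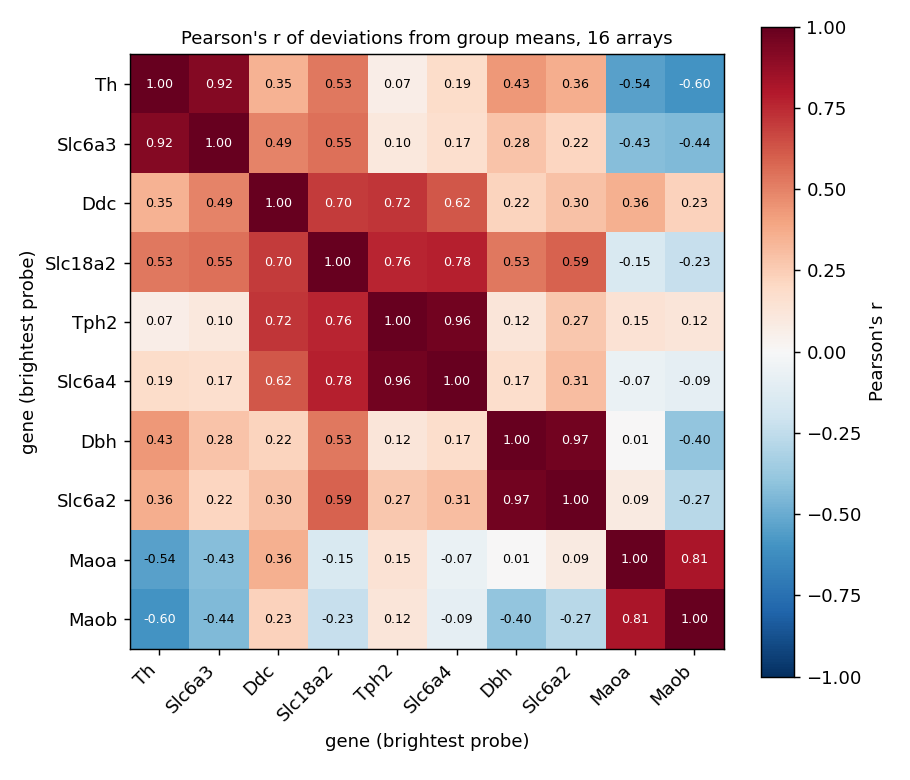
Pearson's r of deviations from group means over 16 arrays for each pair of the 10 genes (rows and columns, brighter probe, ordered by transmitter). Red is positive and blue negative. The off-diagonal squares of Th with Slc6a3, Tph2 with Slc6a4 and Dbh with Slc6a2 (0.92, 0.96 and 0.97) are the deepest red. Those of Maoa with Maob (0.81), Slc18a2 with Slc6a4 and Tph2 (0.78 and 0.76) and Ddc with Tph2 (0.72) are red too. Squares between these dopamine, serotonin and noradrenaline pairs are paler.

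Ranked against 15028 named genes on the array, the hydroxylase and the transporter of 1 transmitter came first or next to first for each other. Slc6a2 was the gene most like Dbh and Dbh the gene most like Slc6a2, and the same held for Tph2 and Slc6a4. Th was the gene most like Slc6a3, and Slc6a3 had rank 2 for Th after Fam24b (r = 0.943). The oxidases were not near the top for each other, with rank 1322 of Maob for Maoa and rank 1236 of Maoa for Maob. As a description over 16 arrays, the next most like Dbh were Phox2a (r = 0.919), a homeodomain factor required for noradrenaline neurons, and Fam240a (0.873). After Slc6a4, those most like Tph2 were Fev (0.886), the ETS factor of serotonin neurons also called Pet1, and Thbs2 (0.841). Chrna6, a nicotinic receptor subunit of dopamine neurons, had rank 2 for Slc6a3 (0.906), followed by Mks1 (0.886), and Odf3 had rank 3 for Th (0.912). The genes most like the shared and degrading members were Tuba1c, Steap1 and Slc39a4 for Ddc (0.869 to 0.879), Pcolce, Klhdc8a and Igf2 for Slc18a2 (0.820 to 0.837), Fermt2, Gak and Klf15 for Maoa (0.961 to 0.963) and Mccc1os, Atp2a2 and Arhgap11a for Maob (0.951 to 0.977).

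Phox2a showed the array pattern of Dbh directly. It read -3.79, -4.14, -3.86 and -3.28 in young deficient against -1.35, -4.47, -3.74 and -3.66 in young wild type. Old deficient arrays read -4.83, -1.78, -3.80 and -3.55, against -3.42, -3.12, -5.86 and -2.98 in old wild type. The high arrays, young wild type 1 and old deficient 2, and the low array, old wild type 3, were those of Dbh and Slc6a2. Fev was highest in young deficient array 2 (-3.62), young wild type array 3 (-3.67), old deficient array 3 (-3.10) and old wild type array 4 (-3.85), the arrays with the most Tph2 in their groups.

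Genes of the identity lists mostly followed their members less closely than these single factors did. The mean of the dopamine neuron list had r = 0.791 with Th and 0.880 with Slc6a3. That of the noradrenergic list had 0.750 with Dbh and 0.745 with Slc6a2, and that of the serotonin list 0.668 with Tph2 and 0.615 with Slc6a4. Gene by gene the values were more mixed. Of 16 measured dopamine neuron genes, 8 had r over 0.5 with Th and 7 with Slc6a3, among them Pitx3, a midbrain dopamine factor (0.890 and 0.883), and Slc10a4, a vesicular protein (0.845 and 0.794). Of 6 noradrenergic genes 1 had r over 0.5 with Dbh, and of 9 serotonergic genes 1 had r over 0.5 with Tph2. Pitx3 and Slc10a4 were picked after their values were seen. Among the dopamine neuron genes, Kcnj6 was lowest (-0.724 with Th and -0.582 with Slc6a3). Nr4a2 and Ntsr1 were also negative with both, as was Ret with Th. The median r of the 16 genes was 0.442 with Th and 0.455 with Slc6a3. Markers of other cells and regions moved with some members too, with an r beyond 0.6 in either direction for 14 of 110 pairs of a marker list and a member. The mean of 6 neuron markers had r = -0.790 with Th, -0.692 with Slc6a3, 0.722 with Maoa and 0.765 with Maob, and that of 6 oligodendrocyte markers 0.608 with Slc6a3, -0.680 with Maoa and -0.624 with Maob. Astrocyte markers had r = -0.726 with Th and -0.609 with Slc6a3, endothelial markers 0.612 with Slc6a3 and striatal markers -0.618 with Tph2. The mean of 5 measured pituitary markers had r = 0.791 with Ddc and 0.712 with Slc18a2, and that of 6 choroid plexus markers 0.767 with Ddc. The pituitary mean deviation ranged from -0.01 to 3.89 in young deficient and -1.06 to 5.49 in young wild type. It ranged from -3.84 to 2.23 in old deficient mice and -3.24 to -1.03 in old wild type. Cga fell with age (-4.84, adjusted p = 0.0385), but was well above background on only 11 of 16 arrays. Of the 5 measured pituitary markers, 2 were well above background on all 16. Tshb, Pou1f1 and Tbx19 did not pass the filter on dim probes. Young wild type array 1, which was high for 6 members, was the highest array for the pituitary (5.49), choroid plexus (1.69) and dopamine neuron (0.72) lists, and the part of these tissues in the correlations was not tested.

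Among genes that work with the members, the clearest difference was in the RNA of Pts, a gene for making the cofactor of the hydroxylases. The cofactor itself was not measured. Th and Tph2 need tetrahydrobiopterin, which is made by Gch1, Pts and Spr. Pts, 6-pyruvoyltetrahydropterin synthase (A_52_P177021, chr9:50330140-50330199, NCBI37/mm9), read -1.22, -0.75, -0.60 and -0.58 in young deficient against 0.76, 0.76, 0.49 and 0.36 in young wild type. Old deficient arrays read -0.66, -0.55, -0.51 and -0.21, against 0.65, 0.50, 0.47 and 0.72 in old wild type. All 8 deficient arrays were below all 8 wild-type arrays, as was the case for 0.487% of all probes. Pts fell by 1.22 ± 0.11 averaged over age (adjusted p = 6.35e-06), to 0.428 of wild type, with an adjusted p of 0.000209 at 4 months and 0.00141 at 18 months, and it was called in all 3 comparisons under every alternative. Of 7 cofactor genes, 1 rose and 1 fell in the comparison averaged over age, where 3.12% of all probes were called. The one that rose was Gchfr, the feedback regulator of Gch1 (0.93 ± 0.22, adjusted p = 0.0327), which averaged 1.03 ± 0.56 in young deficient mice, against -0.14 ± 0.57 in young wild type, and 0.57 ± 0.43 in old deficient mice, against -0.12 ± 0.34 in old wild type. The Gchfr call was lost in 8 of 16 fits that left out 1 array, with adjusted p up to 0.0706.

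**Figure D5:**
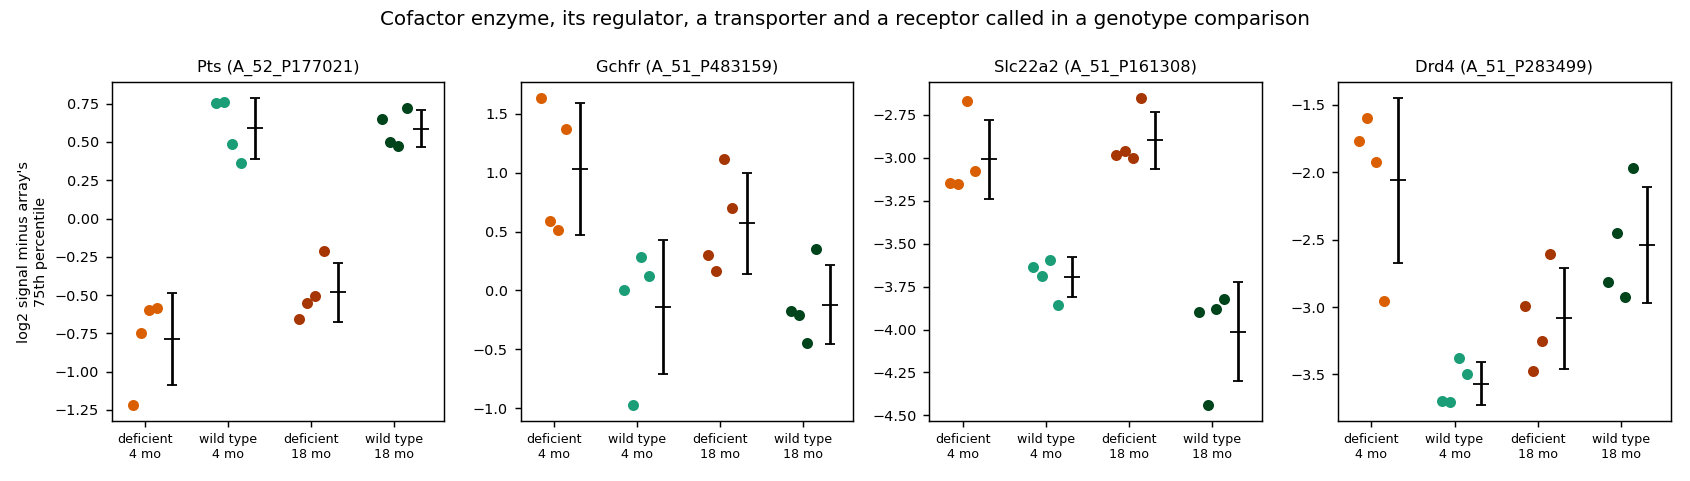
Level (vertical axes, normalized log2 signal) of Pts, Gchfr, Slc22a2 and Drd4 on 16 arrays, by group from left to right: deficient 4 months, wild type 4 months, deficient 18 months, wild type 18 months. Points are arrays and bars the mean ± SD of 4. Pts is below 0 on all deficient arrays and above 0 on all wild-type arrays, and Drd4 is highest in young deficient brain.

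Of 14 measured genes for other monoamine enzymes and transporters, 1 rose and 0 fell in deficient brain averaged over age. Of all probes, 3.12% were called in that comparison. Slc22a2, an organic cation transporter that also carries monoamines, rose by 0.90 ± 0.11 (adjusted p = 0.000151). It read -2.98, -2.96, -3.00 and -2.65 in old deficient against -3.90, -4.44, -3.88 and -3.82 in old wild type, a difference of 1.11 ± 0.15 (adjusted p = 0.000973). The young difference was 0.69 ± 0.15 (adjusted p = 0.0354), and that call was lost in 10 of 16 fits that left out 1 array, with adjusted p up to 0.0884. Slc29a4, the plasma membrane monoamine transporter, was lower in old brain (-0.56 ± 0.12, adjusted p = 0.0313), at 2.55 ± 0.10 in old deficient and 3.16 ± 0.35 in young deficient, and at 2.54 ± 0.21 in old wild type and 3.04 ± 0.25 in young wild type. That call was lost in 9 of 16 such fits (adjusted p up to 0.0743).

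In each receptor list 1 gene was called in at least 1 of 7 comparisons, as were 5.81% of all 33075 probes. Of 5 dopamine receptors only Drd4 was called, with -1.77, -1.60, -1.92 and -2.96 in young deficient against -3.70, -3.70, -3.38 and -3.50 in young wild type, a rise of 1.51 ± 0.28 (adjusted p = 0.0158). Old deficient arrays read -2.99, -3.48, -3.25 and -2.61, against -2.81, -2.45, -2.92 and -1.97 in old wild type, where the difference was -0.54 and not called. The interaction for Drd4 was -2.05 ± 0.39 (adjusted p = 0.0449), with means of -2.06 in young deficient and -2.54 in old wild type, both in row 1 of a slide, and of -3.08 in old deficient and -3.57 in young wild type, both in row 2. That call was lost in 13 of 16 fits that left out 1 array (adjusted p up to 0.12), and the call at 4 months was lost without young wild type array 1 (adjusted p = 0.061) or array 2 (0.0527). Among 12 measured serotonin receptors Htr4 rose with age (0.50 ± 0.11, adjusted p = 0.0395), averaging -1.38 ± 0.20 in old deficient and -1.97 ± 0.16 in young deficient, and -1.45 ± 0.25 in old wild type and -1.85 ± 0.28 in young wild type, and 11 of 16 such fits lost the call (up to 0.0952). Of 9 adrenoceptors, Adrb1 was higher in old than in young deficient brain (1.19 ± 0.08 and 0.50 ± 0.35, a difference of 0.69 ± 0.16, adjusted p = 0.0447), but another Adrb1 probe gave -0.03 (95% interval -0.36 to 0.31), and 12 of 16 such fits lost the call (up to 0.115).

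None of the 16 dopamine, 9 serotonin and 6 noradrenaline identity genes measured was called between genotypes or ages on average. Of all probes, 3.12% were called between genotypes and 1.45% between ages in these comparisons. The dopamine genes with the smallest p between genotypes were Nr4a2, an orphan nuclear receptor needed for midbrain dopamine neurons (-0.46 ± 0.12, adjusted p = 0.0562, but 0.0386 under normexp, 0.0448 under quantile normalization and 0.0267 in the deposited table), and Foxa1 (-0.71 ± 0.23, adjusted p = 0.131), and between ages Kcnj6 (0.35 ± 0.11) and Aldh1a1 (-0.32 ± 0.11). Among serotonin genes they were Gata3 (-0.56 ± 0.26) and Fev (0.34 ± 0.31) between genotypes and Htr1a (0.43 ± 0.14) and Insm1 (0.36 ± 0.15) between ages. Among noradrenaline genes, Adra2a differed by -0.18 ± 0.11 between genotypes, and the smallest p between ages were those of Gal (-0.44 ± 0.23) and Adra2a (-0.13 ± 0.11). Nr4a2 is also made in cortex and claustrum, and its r with Th was -0.05.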

How the data were processed

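Processed spot intensities were used as deposited. Per the file headers, Agilent Feature Extraction 10.7.3.1 subtracted background and corrected spatial trends. The deposited series table holds log2 values, and the submitters' processing notes name limma with no version. It served as an alternative only. Per the labels' protocols, RNA was isolated with a kit from Qiagen and labelled with Cy3. Groups and replicate numbers came from the sample labels, in which the strain and age entries are interchanged.

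Outlier-flagged spots (98 to 182 per array) were left out, 0 were saturated, and spots of a probe were averaged. A probe was kept where 1 or more groups had it well above background on each of their 4 arrays (33075 probes). A means model of 4 groups over 16 arrays was fitted per probe with limma 3.58.1 (R 4.3.3; files were read by data.table, version 1.17.8; 12 residual and 2.94 prior degrees of freedom), and p-values were adjusted by Benjamini and Hochberg over all kept probes of each of 7 contrasts (threshold 0.05). The fit was tested on simulated data. The number of arrays limits the precision.

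The members, lists and rule for naming genes were chosen with earlier results of these data known. Named are all member probes, genes of the pathway, identity and receptor lists whose brightest probe was called (at most 5 per list and contrast), the 2 with the smallest p in such lists with none called, the 3 genes most like each member above background on all arrays, and Slc5a8. Probe coordinates are those of the scanner files (NCBI37/mm9). Alternatives were normexp (offset 50), quantile normalization, the deposited values, no filter or a stricter filter on dim probes, a single probe per gene, a replicate block, fits of only the groups compared, and leaving out each array. Single values of some listed genes are not reported here.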

Additional observations from a re-analysis of the deposited data

Results flagged for a closer look

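Within 6 of 48 groups of 4 arrays (12 probes in 4 groups), 1 array lay far from the other 3 by Dixon's ratio, which chance gives in about 1 of 20 groups. For Th this was old wild type array 2, at 2.70 against 1.99 to 2.05 on the other arrays, the group whose Th was compared with old deficient brain. Ddc was low on the same array, at 1.85. Slc18a2 was low in young deficient array 4, at -0.56. Slc6a4 was high in young deficient array 2, at -0.89, and low in young wild type array 2, at -6.18, where the spot was not well above background. Maoa was low in young deficient array 1, at -0.36, the array that stood apart from all others on the first principal component. The mean genotype difference of Th without old wild type array 2 was -0.51.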

How the results depend on the processing

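The count of member probes called was 0 in each of 7 comparisons under normexp, quantile normalization, the deposited table, no filter on dim probes, only probes above background on all 16 arrays, 1 probe per gene and the replicate block, and ranged from 0 to 0 when 1 array was left out. A fit of only the 2 groups compared gave 1 called probe, Slc6a3 between old deficient and old wild type, and 0 in the other 3 such comparisons. The replicate numbers did not pair the samples. Deviations from group means of same-numbered arrays had r from -0.418 to 0.248, with 6 of 24 pairs over 0.1, against 15 of 72 pairs of different numbers. With the replicate number as a block, 0 member probes were called in every comparison, while among genes of the lists the calls of Drd4 at 4 months (adjusted p = 0.0518) and in the interaction (0.152), Slc22a2 at 4 months (0.0578) and Htr4 with age (0.077) were lost and Nr4a2 was called between genotypes (0.0143). Without a filter on dim probes the calls of the Drd4 interaction (0.127), Adrb1 (0.118), Htr4 (0.107), Slc22a2 at 4 months (0.101), Slc29a4 (0.0856) and Gchfr (0.0791) were lost. Under normexp the Drd4 interaction (0.127), Htr4 (0.0639) and Adrb1 (0.0629) were lost, and in fits of only the groups compared Slc22a2 (0.123) and Drd4 (0.0806) at 4 months and Adrb1 (0.111). Slc22a2 at 4 months was also lost under quantile normalization (0.0653) and in the deposited table (0.0564), and the Drd4 interaction with 1 probe per gene (0.0535). Of 41 single differences recomputed, 5 turned direction in at least 1 setting, all of them uncalled genotype differences averaged over age, and the cause was not tested. Brighter-probe Ddc was 0.0219 under normexp, 0.0276 in the deposited table and -0.11 to 0.10 when 1 array was left out. When 1 array was left out, Dbh ranged from -0.72 to 0.0836, Tph2 from -0.24 to 0.42, Slc6a4 from -0.0840 to 0.74 and Maob from -0.0803 to 0.0165. Spread between arrays of a group limits the 4 genes Dbh, Slc6a2, Tph2 and Slc6a4, whose genotype intervals each exceed 2 log2 units.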
